A study of Caenorhabditis elegans with 2 samples.

Results

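The genes icl-1, pyc-1, pck-1, pck-2, fbp-1 and gpi-1 code for enzymes of the glyoxylate cycle and of gluconeogenesis, and they are 6 of the 19973 protein-coding genes annotated on the 6 nuclear chromosomes of Caenorhabditis elegans. A peak was counted for a gene where its summit, the position of highest signal that the authors recorded, lay inside the gene or within 5 kb of it. By this rule 17 of the 5443 summits of the thresholded list belonged to these genes. There were 8 at icl-1, 5 at pck-2, 2 at pyc-1, 2 at fbp-1 and none at pck-1 or gpi-1. The thresholded list keeps the peaks that passed the authors' irreproducible discovery rate step, and not every peak in it was strong in both replicates. The pooled relaxed list, called on both replicates together before that step, added weaker summits and gave 39 of its 16833 to the 6 genes. By its label this relaxed list holds background as well as peaks. The genes were chosen by the number, position and rank of the summits near them and the GATA sites at those summits, with the peak lists known, so all of these are given as a description with no test.

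The summits come from chromatin immunoprecipitation followed by sequencing (ChIP-seq) of ELT-2 in whole worms, in 1 group of 2 biological replicates. The worms were hermaphrodite L1 larvae of strain OP56 (genotype unc-119(ed3) III; wgIs56), whose inserted transgene codes for ELT-2 fused at its C-terminus to GFP-FLAG, and an anti-GFP antibody pulled down the fusion protein. They were synchronized as L1 larvae starved after bleaching and collected 6 h later. The labels say neither whether the larvae were fed in those hours, nor which promoter drives the transgene, nor whether the untagged elt-2 gene is intact, and no second condition was measured. The depth of the libraries is unknown, because peak lists hold no read counts. As whole worms were assayed, fewer cells with a bound site and less binding per cell cannot be told apart.

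ELT-2 is a GATA-type zinc finger transcription factor of the worm intestine, the organ that also stores much of the animal's fat and glycogen. The glyoxylate cycle bypasses the steps of the citric acid cycle that release carbon dioxide, which allows nematodes, unlike most animals, to make sugar from the acetyl units of fat. Gluconeogenesis builds glucose phosphate, the precursor of the worm sugar trehalose and of glycogen. From pyruvate it runs through pyruvate carboxylase, phosphoenolpyruvate carboxykinase (PEPCK), fructose-1,6-bisphosphatase and glucose-6-phosphate isomerase.

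Of the 6 genes, 4 had a thresholded summit inside or within 5 kb (66.7%, 95% Wilson interval 30 to 90.3%), beside 45.8% of all protein-coding genes. The same 4 genes had at least 2 such summits, beside 20.3% of all genes. At least 5 summits were found at 2 of the 6 genes, icl-1 and pck-2, beside 1.07% of all genes. With its 8 summits icl-1 was 1 of 14 genes with 8 or more, which is 0.0701% of all genes. The median gene length was 4928.5 bp among the 6 genes and 2027 bp over all genes, and each of the 6 was longer than that median, which widens the window searched; its part in the counts was not tested. When a summit was given only to a gene it lay inside or to the nearest gene body, the count was 9 summits, at 4 of the 6 genes. Over all genes, 19.5% had at least 1 under that rule. The counts were then 5 at icl-1, 2 at pck-2, 1 at pyc-1 and 1 at fbp-1.

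**Figure D1:**
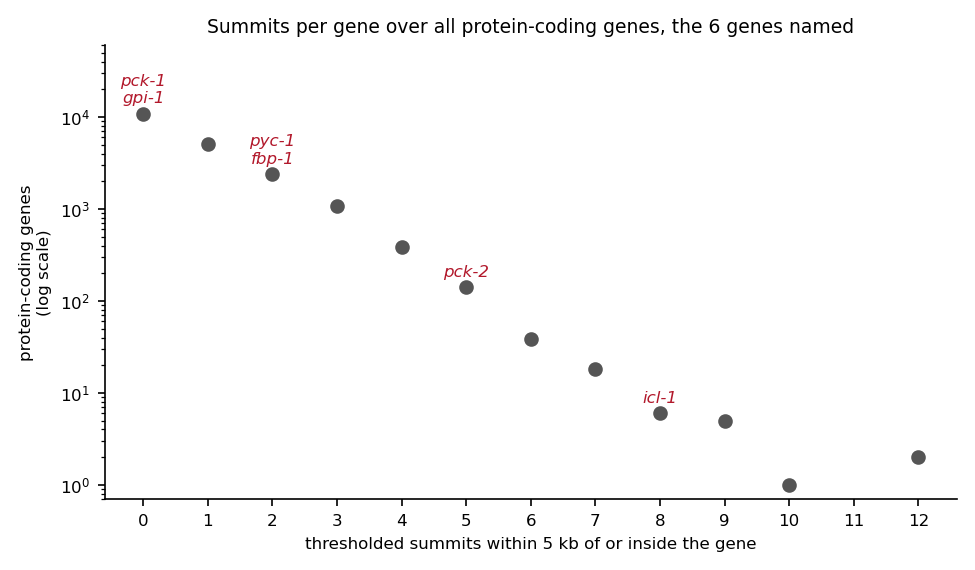
Number of protein-coding genes (log scale) by number of thresholded ELT-2 summits inside or within 5 kb of the gene, with the 6 enzyme genes named at their counts. icl-1 stands at 8 summits, a count shared by 6 genes, and pck-2 at 5, a count shared by 142 genes, whereas pck-1 and gpi-1 are among the 10818 genes with none.

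The bifunctional enzyme of the glyoxylate cycle, isocitrate lyase joined to malate synthase, is encoded by icl-1 (WBGene00001564), which lies on the minus strand at chrV:724332-728004 of build ce11 (WBcel235). Its 8 thresholded summits spread from 3490 bp upstream of the outermost annotated 5′ end to 104 bp past the 3′ end, and the peaks merged into 6 separate regions covering 2446 bp. The strongest of them lay farthest upstream, 3490 bp away at position 731494, with a signal of 1109.98 in the pooled data and rank 75 of 5443. In replicate 1 the nearest summit was 11 bp away with signal 694 (rank 54), and in replicate 2 it was 40 bp away with signal 404 (rank 163). This summit therefore stood high in both replicates, although the signal scale differs between lists and only the ranks can be set side by side. It also lay inside the neighbouring gene srh-2, on the opposite strand, 85 bp downstream of one of its internal 5′ ends. In the longest srh-2 transcript the position is in intron 1, and 3 of the 4 srh-2 transcripts that span it have an exon there.

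The next summit of icl-1 in strength was 2477 bp upstream, at position 730481, again within srh-2 intron 1, with signal 593 and rank 550. The replicates placed it 31 bp and 9 bp away, with signal 362 (rank 457) in replicate 1 and 238 (rank 675) in replicate 2. A weaker summit nearer to the gene, 1471 bp upstream in the same intron, had signal 152 and rank 5047. It was among the 5443 strongest of replicate 2 (signal 79.2, rank 4195) but not of replicate 1 (signal 76.8, rank 5858).

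At the start of icl-1, 2 overlapping peaks had summits 75 bp upstream and 152 bp downstream of the outermost 5′ end. The summit 152 bp downstream, in coding exon 2 of 5, had signal 329 and rank 1759, with signal 175 (rank 2003) in replicate 1 and 149 (rank 1659) in replicate 2. The summit 75 bp upstream was weaker, with signal 163 and rank 4706, and its counterpart in replicate 2 had rank 6617. Both fall in the promoters of icl-1 and of the divergent srh-2, a promoter being 1000 bp upstream to 200 bp downstream of any annotated 5′ end, and the distances to srh-2 were 222 bp and 449 bp. These summits cannot be given to 1 of the 2 genes by position.

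The other 3 icl-1 summits were inside or just past the gene. One lay 1125 bp into the gene in coding exon 3 (signal 170.0, rank 4498), and one 3532 bp in, within the last coding exon (signal 154, rank 4979). The third lay 104 bp past the 3′ end (signal 292, rank 2143), with signal 189 (rank 1753) in replicate 1 and 106 (rank 2838) in replicate 2. The last 2 of these positions are 520 bp and 276 bp upstream of the next gene, fbxb-72, and inside its promoter. Of the 8 summits, then, 2 were in an icl-1 promoter. The strongest summits, 3490 bp and 2477 bp upstream, were in promoters of srh-2 and not of icl-1. The neighbours srh-2 and fbxb-72 counted 8 and 5 summits of their own by the same rule, all of them summits of icl-1 as well.

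The hexamer TGATAA, the GATA site sought at all summits on both strands, lay wholly within 50 bp of 1 of the 8 icl-1 summits. The windows of 101 bp around 3 upstream summits of icl-1 are shown because they hold 3 different arrangements: no site, a site near the summit, and a site at the window's edge. They are RefSeq sequence of the plus strand of chromosome V, build ce11, given 5′ to 3′ in lower case, with any of the 4 hexamers of the degenerate motif WGATAR in capitals. That motif is the core GATA with either of the bases A and T before it and either purine after it, on either strand, so TGATAA is 1 of its 4 forms. The first is the summit 75 bp upstream of icl-1 (chrV:728029-728129), which has none of the 4 and a GC content of 50.5%. The second is 1471 bp upstream (chrV:729425-729525) and has 1 TGATAA, centred 18 bp from the summit. The third is 2477 bp upstream (chrV:730431-730531); the copy of TGATAA on the minus strand centred 49 bp from the summit crosses the window's left edge, so that the sequence opens with all but the first base of its complement.
icl-1 75 bp upstream: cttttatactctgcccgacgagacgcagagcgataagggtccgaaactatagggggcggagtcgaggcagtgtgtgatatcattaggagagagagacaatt
icl-1 1471 bp upstream: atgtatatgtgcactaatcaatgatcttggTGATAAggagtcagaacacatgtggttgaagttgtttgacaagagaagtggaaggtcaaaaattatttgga
icl-1 2477 bp upstream: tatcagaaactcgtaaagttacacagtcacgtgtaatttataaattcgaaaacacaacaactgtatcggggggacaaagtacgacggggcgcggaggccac

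The strongest icl-1 summit, 3490 bp upstream, had no TGATAA within 150 bp. Within 50 bp it had 1 of the other WGATAR hexamers, TGATAG, centred 32 bp from the summit, and 2 more lay farther off within 150 bp. The nearest is shown here with its flanks (chrV:731515-731538, plus strand, capitals for the hexamer).
icl-1 3490 bp upstream, site: gaaagagcgTGATAGgtattcccc

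Pyruvate carboxylase, which makes oxaloacetate from pyruvate at the entry to gluconeogenesis, is encoded by pyc-1 (WBGene00004258; minus strand, chrV:11817783-11822529). It had 2 thresholded summits, both upstream, and the stronger was the more distant. The summit 1647 bp upstream, at position 11824176, had signal 605 and rank 524, and the replicates placed it 0 bp and 13 bp away with signal 333 (rank 574) in replicate 1 and 271 (rank 488) in replicate 2. It lay between genes, 857 bp past the 3′ end of D2023.4. The summit 276 bp upstream, in the pyc-1 promoter, had signal 212 and rank 3442, with signal 111 (rank 3856) in replicate 1 and 95 (rank 3318) in replicate 2. The replicates thus ranked both summits alike, and neither lay within another gene.

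The 2 pyc-1 windows are shown as the clearest contrast in site content among the 17 summits. The weaker one, in the promoter (chrV:11822755-11822855, plus strand), has 3 WGATAR hexamers centred 25, 16 and 8 bp to the left of the summit as printed, and the first of them is TGATAA. The stronger one (chrV:11824126-11824226, plus strand) has none within 50 bp, although TGATAA is present in both comparison windows centred 500 bp to either side.
pyc-1 276 bp upstream: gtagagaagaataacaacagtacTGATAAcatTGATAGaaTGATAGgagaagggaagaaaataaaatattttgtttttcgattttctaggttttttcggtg
pyc-1 1647 bp upstream: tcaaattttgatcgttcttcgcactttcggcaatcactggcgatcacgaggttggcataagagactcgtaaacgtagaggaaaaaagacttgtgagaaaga

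PEPCK turns oxaloacetate into phosphoenolpyruvate, and the worm has 3 PEPCK family genes, which differed in their summits. The gene pck-1 (WBGene00021043; minus strand, chrIII:62888-66260) had no thresholded summit within 5 kb, and the nearest outside that distance was 23087 bp away. The pooled relaxed list gave it 1 peak, in its promoter 535 bp upstream, with signal 68.6 and rank 12929 of 16833. Replicate 1 had a summit 40 bp from it with signal 42.3 (rank 12486), whereas the only summit of replicate 2 near pck-1 lay past its 3′ end, 1876 bp away, with signal 27.4 (rank 17103). The weak promoter peak therefore had a counterpart in 1 of the 2 replicates. Its deposited −log10 q-value, which is higher for stronger peaks, was 0.143 in the pooled list and 0.17 in replicate 1. At such values a weak peak cannot be told from background. Its window (chrIII:66745-66845, plus strand) is shown for comparison with those of the stronger peaks, and it holds no WGATAR hexamer.
pck-1 535 bp upstream: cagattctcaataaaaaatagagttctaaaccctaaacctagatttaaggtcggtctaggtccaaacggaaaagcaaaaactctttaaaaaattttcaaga

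The third PEPCK family gene, pck-3 (WBGene00019151, chromosome IV), is not 1 of the 6 genes and had no summit within 5 kb in any of the 4 lists.

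In contrast, pck-2 (WBGene00011232; plus strand, chrI:7866136-7872100) had 5 thresholded summits in 4 merged regions covering 1843 bp. The strongest lay 1026 bp downstream of the outermost 5′ end, in intron 2 of a 5-exon transcript, with signal 331 and rank 1742. Its rank was better in replicate 2 (signal 189, rank 1092) than in replicate 1 (signal 140.3, rank 2795), and both placed the summit within 13 bp. It was the only 1 of the 17 summits with 2 copies of TGATAA within 50 bp, centred 2 bp and 5 bp from it on opposite sides. The promoter summit of pck-2, 145 bp into the gene in untranslated exon 1, had signal 222 and rank 3213, with signal 146 (rank 2641) in replicate 1 and 85.2 (rank 3853) in replicate 2. It had no TGATAA within 150 bp.

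The other 3 pck-2 summits were distant from its outermost 5′ end and inside or closer to other genes. One lay 179 bp past the pck-2 3′ end within the last coding exon of suro-1, a gene on the opposite strand, with signal 282 and rank 2270. It had signal 197 (rank 1639) in replicate 1 and 90.2 (rank 3576) in replicate 2. The remaining pair of overlapping peaks lay 4152 bp and 3949 bp upstream, 545 bp and 342 bp past the 3′ end of R11A5.3. The first had signal 188 and rank 3989, with rank 2439 in replicate 1 against rank 7779 in replicate 2. The second had signal 164 and rank 4662, and was the only 1 of the 17 with no counterpart among the 5443 strongest summits of either replicate (rank 7149 in replicate 1 and 8850 in replicate 2).

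Fructose-1,6-bisphosphatase, which removes a phosphate at a committed step of gluconeogenesis, is encoded by fbp-1 (WBGene00001404; minus strand, chrI:2581015-2586124). Its 2 thresholded summits were placed much as those of pyc-1, with the weaker in the promoter and the stronger farther upstream. The summit 1635 bp upstream, at position 2587759, had signal 752 and rank 283, the second strongest of the 17. Replicate 1 gave it signal 436 (rank 257) with the summit 0 bp away, and replicate 2 gave signal 306 (rank 359) with the summit 22 bp away. It lies within the last coding exon of ptr-12, although the nearest annotated 5′ end is that of fbp-1. The summit 238 bp upstream, in the promoter, had signal 182 and rank 4151, with signal 99.2 (rank 4395) in replicate 1 and 72.4 (rank 4651) in replicate 2. Neither window of 50 bp to each side held TGATAA, and the nearest copies to the stronger summit were centred 58 bp and 92 bp from it.

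Glucose-6-phosphate isomerase, which works in gluconeogenesis and glycolysis alike, is encoded by gpi-1 (WBGene00013597; plus strand, chrI:13576148-13581611). It had no thresholded summit within 5 kb, and the nearest outside lay 7602 bp away. The pooled relaxed list held 4 summits, with signals of 64.9 to 83.2 and ranks of 9775 to 14182. The strongest of these, 224 bp upstream in the promoter, had a counterpart 31 bp away in each replicate, at rank 12896 in replicate 1 and rank 10558 in replicate 2. Weak entries were thus present at the gpi-1 promoter in both replicates, below the lowest thresholded signal of 142. Their deposited −log10 q-values were 0.417 in the pooled list, 0.151 in replicate 1 and 0.37 in replicate 2. Here too a weak peak cannot be told from background. No gpi-1 summit of the pooled relaxed list had TGATAA within 50 bp.

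**Figure D2:**
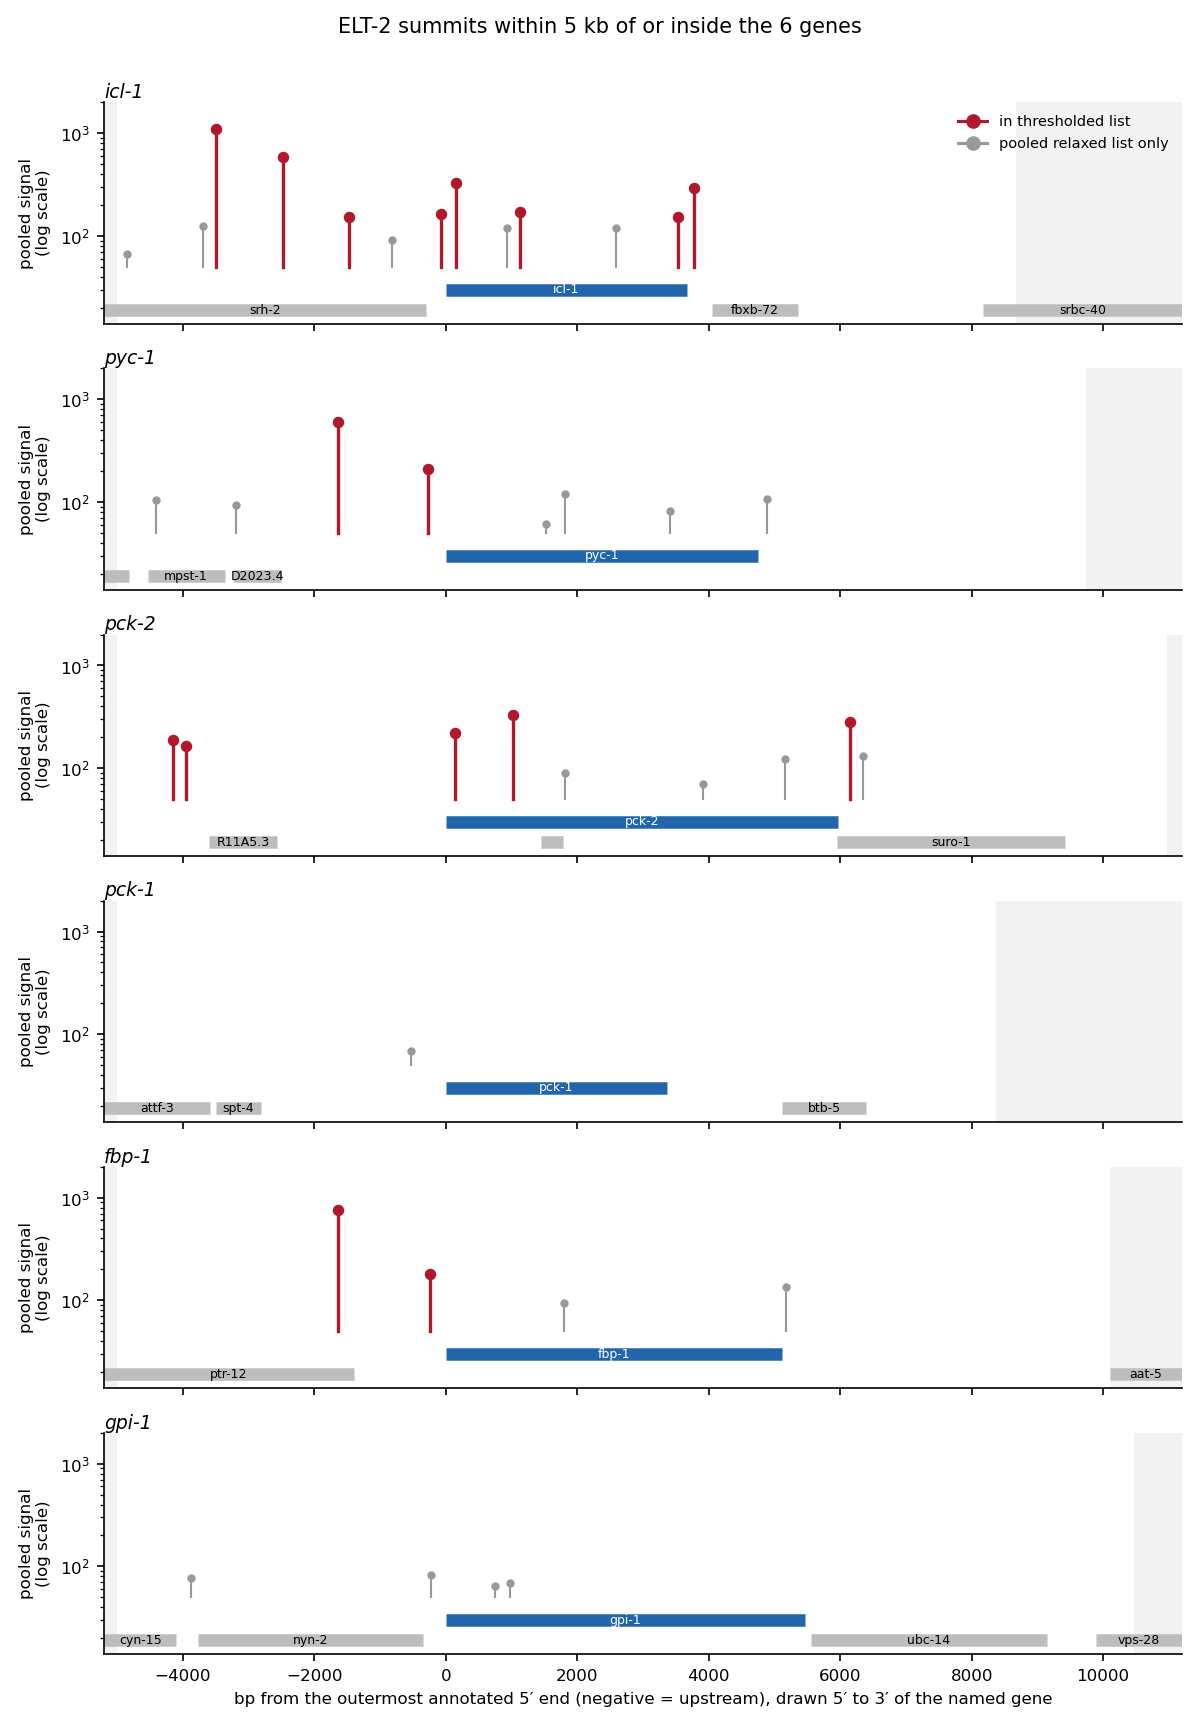
Pooled ELT-2 signal (log scale, in the deposited units) of each summit inside or within 5 kb of the 6 genes, by distance in bp from the outermost 5′ end with each gene drawn left to right; blue bars are the named genes, grey bars are other protein-coding genes and shaded margins lie beyond 5 kb. Red summits are the 17 of the thresholded list and grey summits the 22 found in the pooled relaxed list alone, and the tallest red summit at icl-1, pyc-1 and fbp-1 lies more than 1000 bp upstream.

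A feature shared by the 4 genes with summits was noticed after the values were seen. Each had a thresholded summit in a promoter. At each of the 4 the strongest summit within 5 kb lay outside its promoters, upstream at icl-1, pyc-1 and fbp-1 and in an intron at pck-2. The upstream ones lay inside srh-2 at icl-1, inside ptr-12 at fbp-1 and nearer to the body of D2023.4 at pyc-1. Over all genes, 17% had a promoter summit, and in 31.2% of these 3401 genes the strongest summit lay outside the promoters. The 2 shares are not alike in their genes. A gene whose only summit within 5 kb is in its promoter cannot show the pattern, and the 3401 genes were not limited to those with more. Each of the 4 genes here had at least 2 summits, a count known when they were chosen, and the pattern was not tested. The pattern depends on how far a promoter is taken to reach, because with 3000 bp upstream and 500 bp downstream it was found at 1 of the 4, beside 22.8% of all genes with a summit in such a promoter.

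The distances were alike at pyc-1 and fbp-1. Their 2 summits were 1371 bp apart at pyc-1 and 1397 bp apart at fbp-1. At icl-1 the neighbouring summits were 227 to 2407 bp apart and at pck-2 203 to 5117 bp, and in each of these 2 genes the closest summits belonged to overlapping peaks. Of all 17 summits, 10 lay upstream of their gene, 5 inside and 2 downstream, and 5 lay in a promoter of the gene. For 9 of the 17 the nearest protein-coding 5′ end was that of the gene itself, and 6 lay in a promoter of another gene. These counts describe the 17 summits alone, because the matching shares over all thresholded summits are not given here.

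By rank the 17 summits were spread over the whole thresholded list. Their median rank was 3213, beside a median of 2722 over all 5443, and their median signal was 222, beside 250.4 over all. Among the 1360 strongest summits there were 4 of the 17, and among the 2721 strongest 8 of the 17. The 4 strongest were the 2 distant summits counted upstream of icl-1, the distant summit of fbp-1 and that of pyc-1. All 4 lay inside another gene or nearer to its body, so the nearest gene body rule gave them to other genes. All 5 summits in a promoter of the gene itself ranked lower, from 1759 at icl-1 to 4706 at its other promoter summit.

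In rank among promoter summits, the 4 genes stood beside genes of varied kinds. The strongest icl-1 promoter summit (rank 1759) came between those of ifc-1 (1758), which codes for an intermediate filament protein, and nspg-9 (1760). That of pck-2 (3213) came between elmd-1 (3212) and the pair F22D3.4 and flcn-1 (3214), of which flcn-1 codes for the worm folliculin. The pyc-1 summit (3442) stood between M106.3 (3441) and dod-19 (3443), and the fbp-1 summit (4151) between cgt-1 (4149), a ceramide glucosyltransferase gene, and the pair C26D10.4 and hel-1 (4153). Likeness here means rank in 1 list only.

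The replicates placed 11 of the 17 summits among the 5443 strongest of each within 100 bp (64.7%, Wilson interval 41.3 to 82.7%), beside 81.4% of all thresholded summits. At pyc-1 and fbp-1 this held for all 4 summits, at icl-1 for 4 of 8 and at pck-2 for 3 of 5. The exceptions at icl-1 were the summits 3532 bp and 1125 bp into the gene and those 75 bp and 1471 bp upstream, each found in 1 replicate. The exceptions at pck-2 were its 2 overlapping upstream peaks. With 200 bp allowed between summits the share was 82.4%, beside 83.9% of all.

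**Figure D3:**
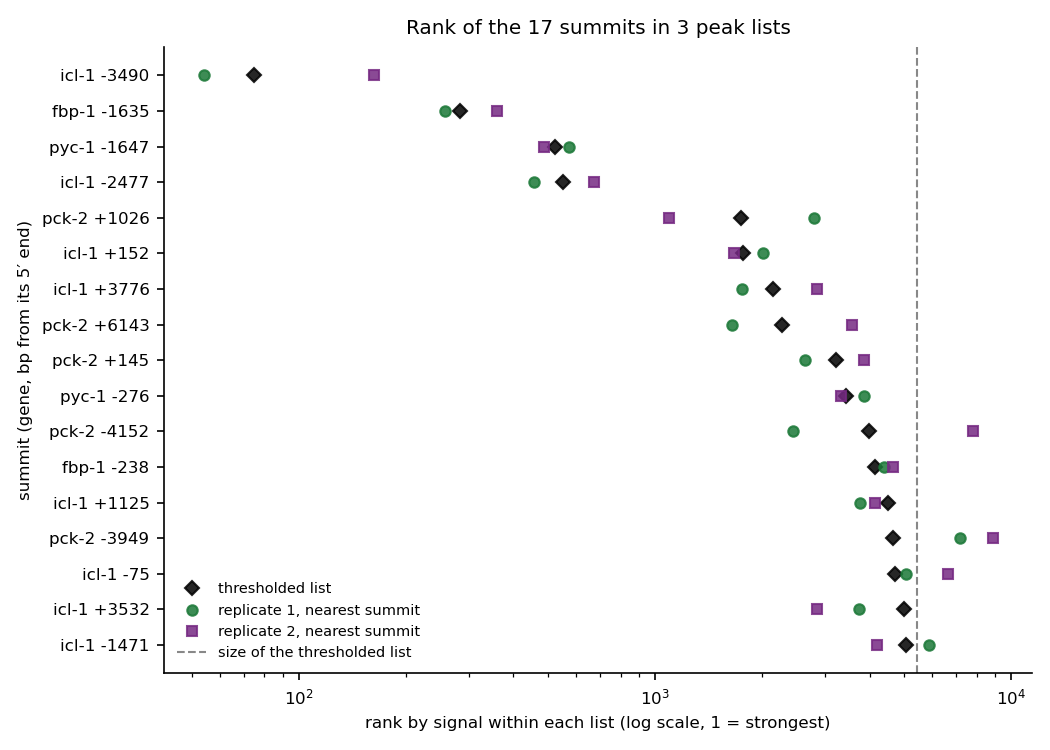
Rank by signal (log scale, 1 is the strongest) of the 17 summits in the thresholded list and of the nearest summit in each replicate's list, with the summits ordered by thresholded rank and the dashed line at 5443. The 4 strongest stay within the first 675 ranks in all 3 lists, whereas the replicates lie far apart for the pck-2 summit 4152 bp upstream (2439 in replicate 1 and 7779 in replicate 2).

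Most of the 17 summits had no TGATAA beside them. It lay within 50 bp of 4 of the 17 summits (23.5%, Wilson interval 9.56 to 47.3%), beside 45% of all 5443. The 4 were icl-1 1471 bp upstream, pck-2 3949 bp upstream, pck-2 1026 bp downstream and pyc-1 276 bp upstream. In the comparison windows centred 500 bp away, 3 of 17 held it on the left (17.6%, beside 10.4% for all summits) and 1 of 17 on the right (5.88%, beside 9.9%). The value depends on which replicate supplies the summits: among the 5443 strongest of replicate 2, 7 of the 14 summits near the 6 genes had the hexamer (50%, beside 44.4% of all), and among those of replicate 1, 4 of 19 (21.1%, beside 44.1% of all). The interval is wide because of the small number of summits, and summits of overlapping peaks share part of their sequence.

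With the degenerate motif WGATAR the count was 5 of 17 (29.4%, Wilson interval 13.3 to 53.1%), beside 57.7% of all summits, and the summit added was the strongest one of icl-1. For the core GATA, tried after the data had been seen, the count was 12 of 17 (70.6%), beside 72.1% of all. Within 150 bp the 17 summits held 11 copies of TGATAA, counted at each summit, a mean of 0.647 per summit, beside 1.199 over all summits. The same copy was counted at both summits of the overlapping peaks at the start of icl-1. At their thresholded positions, none of the 4 strongest summits had TGATAA wholly within 50 bp. At the replicates' own positions this was not so for 2 of them. The icl-1 copy that crosses the window's edge was centred 18 bp from the summit of replicate 1, which lay 2446 bp upstream, and 40 bp from that of replicate 2, which lay 2468 bp upstream. At fbp-1 a copy was centred 36 bp from the summit of replicate 2, 1657 bp upstream, and 58 bp from that of replicate 1.

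**Figure D4:**
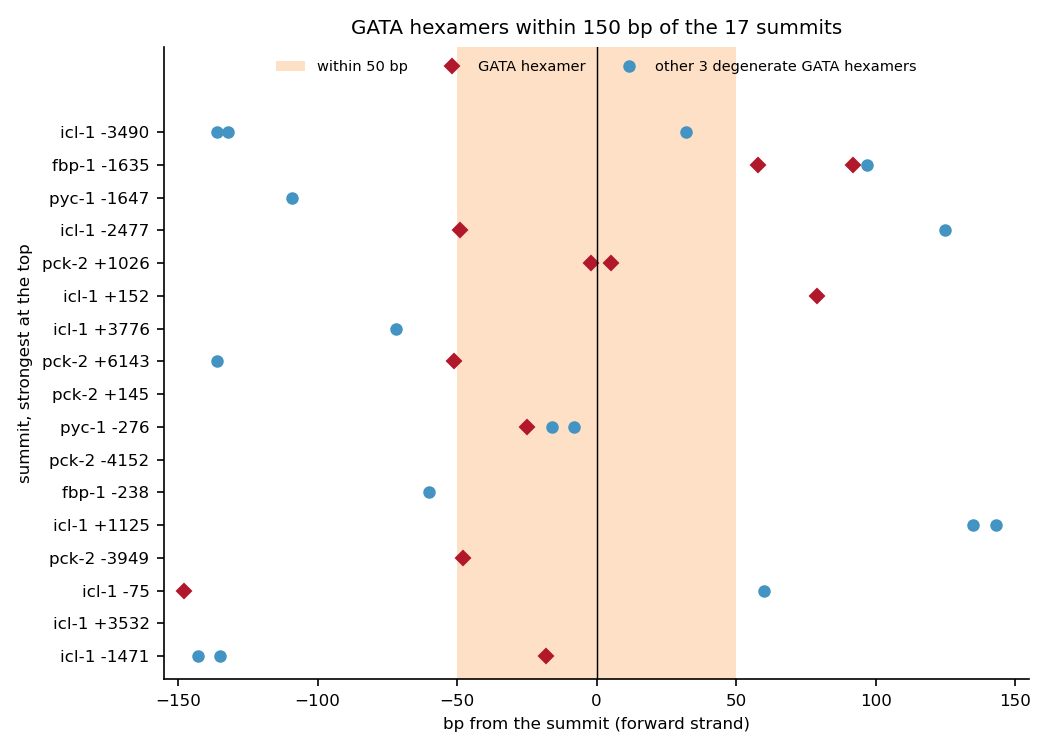
Position of TGATAA (red diamonds, the GATA hexamer) and of the other 3 WGATAR hexamers (blue circles) by centre, in bp from the summit along the plus strand, for the 17 summits ordered from the strongest at the top; the shaded band marks 50 bp to each side. Only pck-2 1026 bp downstream has 2 red diamonds beside its summit, and the diamond of icl-1 2477 bp upstream at the band's left edge is a copy that crosses the edge and was not counted.

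TGATAA was present around all 6 genes. There were 83 copies in the 88332 bp searched, or 0.94 per kb, beside 1.05 per kb over the nuclear genome. The density was highest at pyc-1, with 22 copies or 1.49 per kb, and lowest at gpi-1, with 8 copies or 0.517 per kb. In the promoters themselves TGATAA was present in 3 of the 6 genes, with 5 copies at pyc-1, 2 at pck-2 and 1 at icl-1, beside 75.5% of all protein-coding genes with at least 1. It was in no annotated promoter of pck-1, fbp-1 or gpi-1, and fbp-1 had a thresholded promoter summit all the same.

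Just below the threshold, the pooled relaxed list had at least 1 summit at all 6 genes, beside 75.6% of all protein-coding genes. Of its 39 summits there, 22 were not in the thresholded list. The strongest of the 22 was 60 bp past the 3′ end of fbp-1 (signal 135, rank 5770), and the next was 378 bp past that of pck-2 (signal 130.2, rank 5975). The weakest member inside the thresholded list was the icl-1 summit 1471 bp upstream, at 152, and the lowest signal anywhere in that list was 142. One summit below the threshold, 925 bp into icl-1 in intron 2, had 1 TGATAA within 50 bp and counterparts among the strongest of both replicates (rank 5373 in replicate 1 and 4131 in replicate 2). At the distance limit there were no close cases, since the farthest thresholded summits counted lay 4152 bp from pck-2 and 3490 bp from icl-1, and the nearest one not counted was 7602 bp from gpi-1.

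In the list of each replicate alone, icl-1 again had the most summits or shared that place. Over the whole relaxed lists, icl-1 had 13 summits in replicate 1 and 11 in replicate 2, pck-2 had 10 in each, pyc-1 had 8 in replicate 1 and 11 in replicate 2, and fbp-1 had 7 in replicate 1 and 5 in replicate 2. Among the 5443 strongest of each replicate, icl-1 had 9 and 6, pck-2 had 4 and 4, pyc-1 had 3 and 2, and fbp-1 had 3 and 2, with none at pck-1 or gpi-1 in either. Among these stronger summits icl-1 had the most in both replicates, and over the whole list of replicate 2 it was level with pyc-1. Having none, as pck-1 and gpi-1 did, is common. In the thresholded list it held for 10818 of the 19973 protein-coding genes, and the matching share for each replicate is not given here.

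Set beside neighbouring pathways, the share of genes with a promoter summit differed from list to list, and the lists were not tested against each other. For the 6 genes it was 4 of 6 (66.7%, Wilson interval 30 to 90.3%), beside 17% of all genes, and when only the 2721 strongest summits were used it was 1 of 6, icl-1, beside 8.86% of all genes. The list of 19 glycolysis genes holds gpi-1 and other genes of reversible steps that gluconeogenesis uses too, so it does not set the pathways apart. Of these 19 genes, 3 had a promoter summit (15.8%, interval 5.52 to 37.6%). They were pyk-2, a pyruvate kinase gene (signal 248, rank 2768), aldo-2, an aldolase gene (signal 216, rank 3358), and gpd-1, a glyceraldehyde-3-phosphate dehydrogenase gene (signal 175, rank 4337), whereas aldo-1 and enol-1 had none. The glycolysis share in promoters thus lay near the 17% of all genes, and the 3 ranks overlapped those of the 4 promoter summits above. From replicate 1 alone 6 glycolysis genes had a promoter summit, beside 17% of all genes, and from replicate 2 alone 4, beside 16.5%. Within 5 kb there was a thresholded summit at 12 of the 19 glycolysis genes (63.2%), 23 of the 28 citric acid cycle genes (82.1%) and 10 of the 13 trehalose and glycogen genes (76.9%), next to 66.7% of the 6 genes and 45.8% of all genes.

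The list of 28 citric acid cycle genes includes genes of the pyruvate dehydrogenase complex and of steps shared with the glyoxylate cycle. Of these 28 genes, 14 had a promoter summit (50%, interval 32.6 to 67.4%). The strongest were at sdha-1 (signal 514, rank 770) and mev-1 (signal 497, rank 834), which code for subunits of succinate dehydrogenase, at the citrate synthase gene cts-1 (signal 469.6, rank 943) and at dld-1 (signal 387, rank 1332), which codes for dihydrolipoamide dehydrogenase. There was none at dlst-1 or idh-1. All 4 of these promoter summits ranked above the strongest promoter summit of the glyoxylate and gluconeogenesis genes, that of icl-1 at 1759. Of 13 genes for making or using trehalose and glycogen, the stores that gluconeogenesis feeds, 7 had one (53.8%, interval 29.1 to 76.8%). The glycogen synthase gene gsy-1 (signal 566, rank 611), the trehalase gene tre-1 (signal 510.4, rank 786), the glycogen phosphorylase gene pygl-1 (signal 259, rank 2581) and the trehalose phosphatase gene gob-1 (signal 205, rank 3584) led that list, and agl-1 and gyg-1 had none. No gene of these 3 lists had more than 4 thresholded summits within 5 kb, beside 8 at icl-1 and 5 at pck-2.

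**Figure D5:**
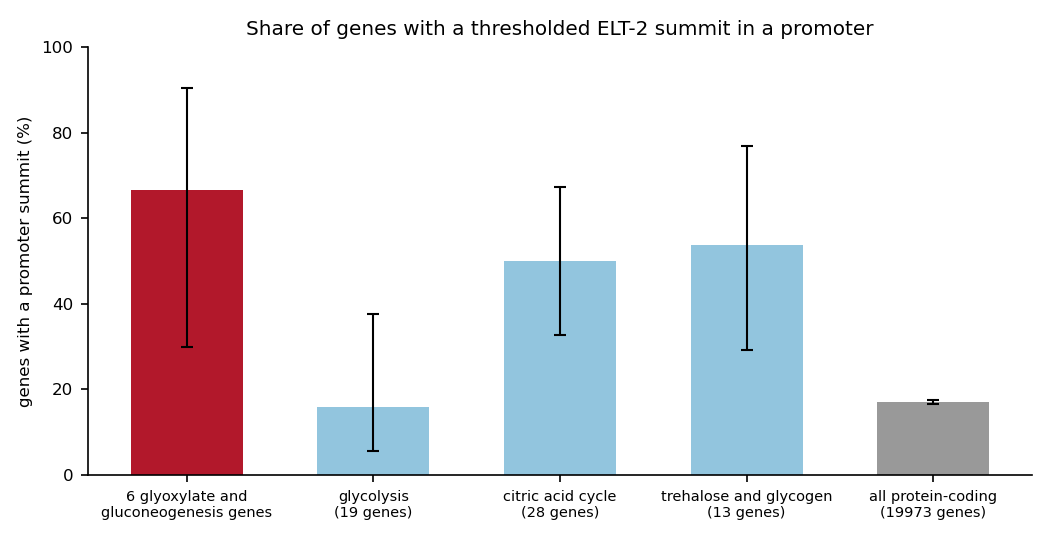
Share of genes (%) with a thresholded ELT-2 summit in a promoter for the 6 glyoxylate and gluconeogenesis genes, 3 neighbouring pathway lists and all protein-coding genes, with 95% Wilson intervals as error bars. The interval of the 6 genes runs from 30 to 90.3% and overlaps those of the 3 lists.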

How the data were processed

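ELT-2 peak lists on build ce11 were used: 1 relaxed list for each of 2 replicates, 1 relaxed list of the pooled data and 1 thresholded list made from these by the irreproducible discovery rate procedure, per the labels and the notes deposited with the samples. The peak signal is a score deposited by the authors in the signal column of the narrowPeak format, and the statistic it holds is not stated. Its scale differs between lists, and ranks were taken within each list alone. Deposited −log10 q-values have a ceiling that 3415 thresholded peaks share, and no rank rests on them. No source used here names the aligner, caller, thresholds or versions. Depth per sample is unknown, and Wilson intervals cover counting error only. The labels call the replicates biological and say no more of how they were separated.

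Genes, transcripts and exons came from Ensembl release 115 (WBcel235, the same assembly as ce11) and sequence from RefSeq. Chromosome ends were compared with the peaks, and no coordinates were converted. Positions are 1-based. Exon and intron numbers refer to the longest transcript at the position. Hexamers had to lie wholly within the window. A replicate counted as having a summit where 1 of its 5443 strongest lay within 100 bp. The counting functions, run with Python 3.11.15, NumPy 2.4.6, pandas 2.3.3 and SciPy 1.17.1 (figures with matplotlib 3.10.9), were tested on simulated data. With 1 group and members chosen from these lists, no test was made. Members and pathway lists were chosen with earlier results of these data known.

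Genes named are the 6 members, pck-3, the gene with the 5′ end nearest each summit, the genes next in rank among promoter summits, and of each pathway list up to 4 with the strongest promoter summit and up to 2 without one, first in the alphabet. Other genes overlapping a summit, and those in the closing section, were named after their values were seen. Alternatives were other distances, promoter windows, motif windows and motifs, assignment to the nearest gene, stricter and relaxed lists, and each replicate left out. Lists on ce10 were not used here, and sequence is shown for icl-1, pyc-1 and pck-1 alone.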

Additional observations from a re-analysis of the deposited data

How the results depend on the processing

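The count of genes with a thresholded summit within 5 kb was 4 to 6 over all settings tried, with 4 at 2 kb (beside 30.5% of all genes) and 5 at 10 kb (beside 63.1%), where gpi-1 was added. The total of 17 summits was 13 at 2 kb, 18 at 10 kb, 14 to 19 from 1 replicate alone, 9 with the nearest gene body only, 8 among the stronger 2721 summits and 39 in the pooled relaxed list. Members with a promoter summit numbered 1 among those 2721, beside 8.86% of all genes. Glycolysis genes numbered 0 there, citric acid cycle genes 10 and trehalose and glycogen genes 3. With the pooled relaxed list, the members had 6, glycolysis 13, the citric acid cycle 26, and trehalose and glycogen 11, beside 33.8% of all genes. Promoters of 3000 and 500 bp gave glycolysis 8, beside 25.2% of all genes, and left 1 member with its strongest summit outside. Those of 500 and 100 bp gave trehalose and glycogen 3, beside 13.2% of all genes. Leaving out a replicate gave 4 to 6 glycolysis genes (6 without replicate 2) and a TGATAA share of 21.1 to 50% (50% without replicate 1), and the core GATA gave 70.6%. In these cases the cause was not tested beyond what the setting itself adds or removes. The share of TGATAA was 11.8% in windows of 25 bp (27.1% of all summits) and 47.1% in windows of 100 bp (59.8% of all). Unknown depth, 6 genes and 17 summits limit precision. No paired analysis was possible because there is 1 group and no comparison.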

Other observations

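Genes with many summits outside the pathway were looked up after the counts had been seen. Within 5 kb, pkg-2 and vhp-1 had 12 thresholded summits each, spp-4 had 10, and abts-4, mnk-1, spp-2, spp-5 and spp-6 had 9. With 8 summits, icl-1 and srh-2 stood beside F31F7.2, daf-5, mdl-1 and spp-3. The spp genes code for saposin-like proteins, and all 5 named here are on the X chromosome. A summit within 5 kb of several genes was counted at each of them, so genes close together can share summits, as icl-1 and srh-2 do.

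In the neighbouring pathways, some genes had several summits within 5 kb but none in a promoter. The trehalose phosphate synthase gene tps-1, the isocitrate dehydrogenase gene idh-1, the glyceraldehyde-3-phosphate dehydrogenase genes gpd-2 and gpd-3 and the hexokinase gene hxk-1 had 4 each.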
